A study of Mus musculus with 2 samples.

Results

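The Mir17-92 cluster and its paralogue, the Mir106a-363 cluster, were followed in small RNA of mouse skeletal muscle. The members were the 10 microRNA genes that GENCODE M21 names Mir17, Mir18, Mir19a, Mir20a, Mir19b-1 and Mir92-1 in the first cluster, and Mir20b, Mir19b-2, Mir92-2 and Mir363 in the second. They are 10 of the 2202 microRNA genes counted. Mir106a and Mir18b, the other genes of the second cluster, are given beside them.

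The data were 2 libraries of RNA of under 30 bases from the gastrocnemius, a calf muscle, of adult male mice aged 8 to 10 months. Their strain is labelled 5xFAD/CAST, which joins the name of an amyloid transgene line to that of a wild-derived inbred strain, and carriage of the transgene is not given. Both libraries belong to 1 group, numbered as biological replicates 1 and 2. They share a donor record, and no label says that they were separate animals, so all spreads and p-values describe these 2 libraries and may be technical. There was no second condition to compare.

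The libraries held 1157420 and 1193393 sense reads in microRNA genes, the denominators of every level below, given in CPM (reads scaled to the same library total). Reads aligned to several places made up 60.2% and 63.2% of all reads and were counted in no gene. Where a gene had no counted read, its level could still reach the equivalent of 3 counts, 2.59 CPM in the first library or 2.51 CPM in the second. This limit does not cover reads aligned to several places. All intervals and such limits reflect counting error alone, because amplified reads were not marked by molecule. Detection required at least 2 CPM in each library. Of the 9 skeletal muscle microRNA genes listed as markers, 8 were detected, and the list summed to 38697 and 37311 CPM. Mir206 alone made up 32948 and 32931 CPM of this, while Mir1a-1, Mir133a-1 and Mir133b lay between 5.03 and 23.3 CPM. Mir1a-2 lay at 51.8 and 45.2 CPM, and Mir133a-2, the marker not detected, at 4.32 and 0.00 CPM. Reads that align to both Mir1a genes of the list, or to both Mir133a genes, would be counted in no gene. The low counts of the Mir1a and Mir133a genes thus do not show that their microRNAs were scarce. Sequence that Mir133b may share with other genes was not searched.

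A microRNA cluster is transcribed as 1 primary RNA, from which each hairpin is cut and 1 arm is loaded as the guide that silences messenger RNAs. The guide pairs mainly through its seed, bases 2 to 8, so arms with the same seed have overlapping targets. Mir17-92 is known as an oncogenic cluster, induced by Myc and needed for normal development of heart, lung and B cells. The Mir106a-363 cluster arose by duplication and lies on the X chromosome. The members fall into 4 seed families: miR-17, which represses cell cycle inhibitors, miR-18, whose seed is close to that of miR-17, miR-19, and miR-92.

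The guide arms are shown to make the families visible, from 5′ to 3′ with the seed in capitals, as RefSeq gives them for GRCm38.p6. All 10 members were matched by symbol.
miR-17-5p (Mir17): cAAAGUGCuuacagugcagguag
miR-20a-5p (Mir20a): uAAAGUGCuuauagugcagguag
miR-20b-5p (Mir20b): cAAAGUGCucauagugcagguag
miR-106a-5p (Mir106a): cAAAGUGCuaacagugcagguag
miR-18a-5p (Mir18): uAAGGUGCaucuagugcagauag
miR-18b-5p (Mir18b): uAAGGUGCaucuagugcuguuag
miR-19a-3p (Mir19a): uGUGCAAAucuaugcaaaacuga
miR-19b-3p (Mir19b-1 and Mir19b-2): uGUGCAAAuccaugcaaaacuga
miR-92a-3p (Mir92-1 and Mir92-2): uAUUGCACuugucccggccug
miR-363-3p (Mir363): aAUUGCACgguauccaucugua

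Positions below are counted from 1 at the 5′ end of an arm. Within the miR-17 family, miR-17-5p differs from miR-106a-5p at 1 base (U10A), from miR-20a-5p at 2 (C1U and C12U) and from miR-20b-5p at 2 (U10C and C12U). The miR-19a-3p and miR-19b-3p arms differ at 1 base (U11C), and the miR-18a-5p and miR-18b-5p arms at 2 (A18U and A20U). Each of these arms was found in 1 microRNA gene, except that miR-19b-3p was found whole in Mir19b-1 and Mir19b-2, and miR-92a-3p whole in Mir92-1 and Mir92-2.

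The hairpins of these duplicated pairs show how far the identity reaches. They are the GENCODE M21 gene sequences, with the longest run that both copies share in capitals.
Mir92-1: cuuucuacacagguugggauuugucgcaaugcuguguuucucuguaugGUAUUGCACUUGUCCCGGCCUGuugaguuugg
Mir92-2: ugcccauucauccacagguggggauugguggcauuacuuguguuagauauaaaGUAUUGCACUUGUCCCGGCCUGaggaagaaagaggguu
Mir19b-1: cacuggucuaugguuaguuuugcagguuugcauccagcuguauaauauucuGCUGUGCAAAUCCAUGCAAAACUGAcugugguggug
Mir19b-2: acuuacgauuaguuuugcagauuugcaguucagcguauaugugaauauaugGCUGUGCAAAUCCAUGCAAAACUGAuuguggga

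The shared run is 22 bases in the Mir92 pair and 25 bases in the Mir19b pair. It holds the whole guide arm and ends at the arm's last base in both pairs. A read inside the run matches both copies, while one that reaches past the arm's 3′ end, or that comes from the other arm, does not match both. The deposited counts do not separate arms or read lengths, so levels of these 4 genes are uncertain. The other 6 members share no run of 20 bases with another microRNA gene.

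The Mir17-92 hairpins lie on the plus strand of chromosome 14 of mm10, from 115043671 to 115044506, a span of 836 bases. All 6 are inside exon 2 of Mir17hg (ENSMUSG00000089726.2), the lincRNA host gene, which runs from 115042879 to 115046727. The Mir106a-363 hairpins lie on the minus strand of the X chromosome from 52741693 to 52742567, a span of 875 bases. The 4 listed members overlap no exon there, and the first hairpin of that cluster, Mir106a, overlaps the noncoding gene Kis2 by 5 bases. No read was counted on the opposite strand of any of these 12 genes in either library.

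Of the 10 members, 7 were detected, beside 14.6% of all 2202 genes. The Mir17-92 cluster summed to 2406 and 2201 reads in replicates 1 and 2, or 2079 and 1844 CPM, with a mean of 1962 ± 166 CPM (SD, n = 2). That was 0.208% of the sense reads in replicate 1 (exact Clopper-Pearson 95% interval 0.200 to 0.216) and 0.184% in replicate 2 (0.177 to 0.192). The 4 listed Mir106a-363 members summed to 92 and 87 reads, or 79.5 and 72.9 CPM, with a mean of 76.2 ± 4.66 CPM (SD, n = 2). Chromosome 14 thus gave 96.3% and 96.2% of the members' counted reads.

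**Figure D1:**
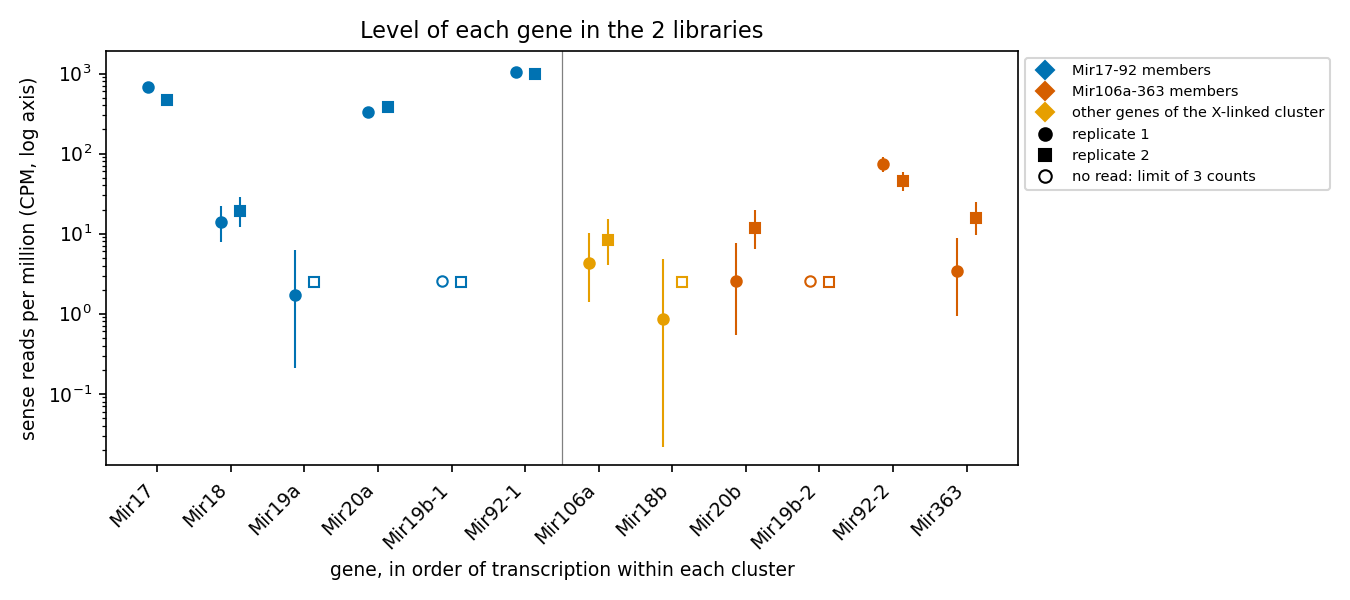
Level in CPM (log axis) of each gene in the 2 libraries, with circles for replicate 1, squares for replicate 2 and exact 95% counting intervals. Open symbols mark the limit that 0 counted reads allow, which does not cover reads aligned to several places. Mir92-1, Mir17 and Mir20a lie highest in both libraries, from 335 to 1058 CPM, and the highest X-linked gene, Mir92-2, lies at 73.4 and 45.2 CPM.

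Within the miR-92 family, whose 3 genes share the guide seed, Mir92-1 (ENSMUSG00000076062.1, 115044427 to 115044506) had 1225 reads in replicate 1 and 1161 in replicate 2. Its level was 1016 ± 60.5 CPM (SD, n = 2), the highest of the 10 members in both libraries, at rank 56 and 53 of 2202 genes. Mir92-2 (ENSMUSG00000065613.1, X chromosome, 52741838 to 52741928) had 85 and 54 reads, or 59.3 ± 19.9 CPM (SD, n = 2). Mir363 (ENSMUSG00000070106.1, 52741693 to 52741767), the last hairpin of the X-linked cluster, had 4 and 19 reads, or 9.69 ± 8.81 CPM (SD, n = 2). The 2 copies that encode the same miR-92a-3p thus differed widely in counted reads, Mir92-1 being 14.4-fold (11.6 to 18.2) and 21.5-fold (16.4 to 28.8) higher than Mir92-2. Reads inside the run that these copies share align to both and were counted in no gene. The levels, ranks and ratios of the 2 copies, with their intervals, leave such reads out.

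Within the miR-17 family, Mir17 (ENSMUSG00000065508.1, 115043671 to 115043754), the first hairpin of its cluster, had 775 and 564 reads, or 571 ± 139 CPM (SD, n = 2). Mir20a (ENSMUSG00000065442.1, 115044157 to 115044263), which carries the same seed, had 388 and 453 reads, or 357 ± 31.4 CPM (SD, n = 2). Mir17 was the higher of the pair in both libraries. Mir20b (ENSMUSG00000076041.1, X chromosome, 52742113 to 52742192) had 3 and 14 reads, or 7.16 ± 6.46 CPM (SD, n = 2), and Mir106a, its partner there, had 5 and 10 reads. Both X-linked genes were far below their chromosome 14 paralogues in both libraries. Mir20a was 129-fold (43.9 to 629.9) higher than Mir20b in replicate 1 and 32.4-fold (19.1 to 59.7) in replicate 2. Mir17 was 155-fold (66.1 to 479) and 56.4-fold (30.4 to 118) higher than Mir106a.

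The miR-18 family was low. Mir18 (ENSMUSG00000065403.1, 115043851 to 115043946) had 16 and 23 reads, or 16.5 ± 3.85 CPM (SD, n = 2), although it lies between Mir17 and the rest of the cluster. Mir17 was 48.4-fold (29.6 to 85.2) higher than Mir18 in replicate 1 and 24.5-fold (16.2 to 39.0) in replicate 2. Mir18b, its X-linked paralogue, had 1 read in replicate 1 and none in replicate 2.

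The miR-19 family was nearly without counted reads. Mir19a (ENSMUSG00000065416.1, 115044000 to 115044081) had 2 reads in replicate 1 and 0 in replicate 2. Mir19b-1 (ENSMUSG00000076256.1, 115044305 to 115044391) and Mir19b-2 (ENSMUSG00000065473.1, X chromosome, 52741983 to 52742066) had 0 in both libraries. Mir19a and Mir19b-1 flank Mir20a, with its 388 and 453 reads, in the same exon. In replicate 1, which held both reads of Mir19a, Mir17 was 388-fold (107 to 3205) higher than Mir19a. Over both libraries, Mir17 was at least 446-fold higher than Mir19b-1 in counted reads, taking a floor of 3 counts over both. This bound does not cover reads inside the run that Mir19b-1 shares with Mir19b-2, which were counted in no gene.

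The sequence facts of the miR-19 genes differ. For Mir19b-1 and Mir19b-2 the guide arm is identical, and reads of it that align to both were counted in no gene, so 0 counts do not show that miR-19b-3p was absent. For Mir19a the guide arm is in 1 gene. Its longest exact run shared with another microRNA gene is 13 bases, the same length as for Mir17. Inexact matches and the rest of the genome were not searched, and miR-19a-3p differs from miR-19b-3p at 1 base. The miR-19a-3p arm has the lowest GC content of the members' guide arms, 34.8%. The next, miR-20a-5p and miR-19b-3p, both have 39.1%, and Mir20a is among the 3 highest members, while miR-92a-3p has 57.1%. The part of base composition in these levels was not tested.

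**Figure D2:**
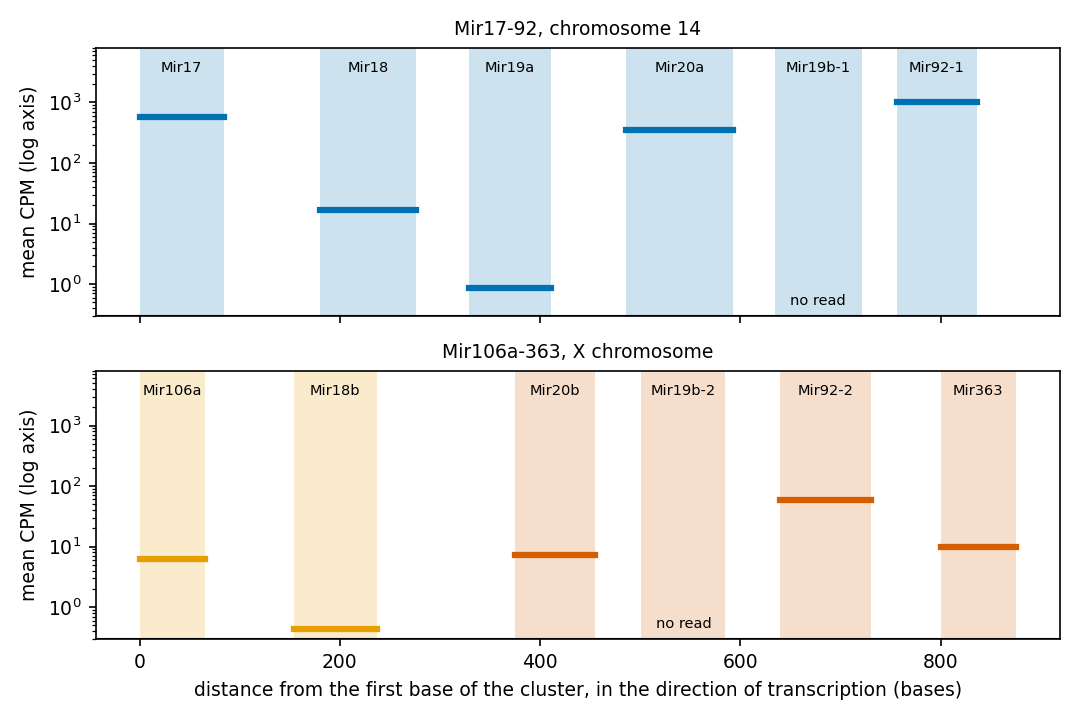
Mean CPM (log axis) of each hairpin against its distance in bases from the first base of its cluster, in the direction of transcription; shaded blocks are the annotated hairpins and bars their means over the 2 libraries. In both panels the Mir92 hairpin has the highest bar, and the Mir19b hairpins have no counted read.

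In order of mean level of counted reads, the members ran Mir92-1, Mir17, Mir20a, Mir92-2, Mir18, Mir363, Mir20b, Mir19a and then the Mir19b genes. Reads inside the runs shared by the Mir92 pair or the Mir19b pair were counted in no gene. The places of these 4 genes are thus uncertain. In counted reads, each of the first 4 in the order was above the next in both libraries without overlap. Mir18 was above Mir363 in both libraries, by 4.00-fold (1.29 to 16.4) and 1.21-fold (0.631 to 2.35), and Mir363 above Mir20b, by 1.33-fold (0.226 to 9.10) and 1.36-fold (0.645 to 2.93). Of these 4 within-library intervals, only that of Mir18 to Mir363 in replicate 1 lies above 1, and in both pairs the values overlapped between libraries. These are CPM of whole genes, read from RNA of under 30 bases, and dividing by the annotated gene length, a check chosen after seeing the data, left the order of all 10 unchanged.

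The clusters were then compared within each library, which needs no scaling between libraries. Mir17-92 held 26.2 times the reads of the listed Mir106a-363 members in replicate 1 (exact binomial 95% interval 21.2 to 32.6) and 25.3 times in replicate 2 (20.4 to 31.7), a mean of 25.7 ± 0.603 (SD, n = 2). The intervals of the 2 libraries overlap. With Mir106a and Mir18b added, which makes 6 genes on each side, the ratios were 24.6 and 22.7. Mir92-2 carries most of the X-linked reads, and without the 4 genes with a shared run the ratios were 169 and 31.5, on 7 and 33 X-linked reads.

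The counted reads of the clusters differed in make-up by seed family. Reads inside the runs shared by the Mir92 pair or the Mir19b pair align to both copies and were counted in no gene. The shares and their intervals leave such reads out, so they do not give the make-up of all reads. In Mir17-92, the miR-92 family, here Mir92-1 alone, held 50.9% (48.9 to 52.9) of the reads in replicate 1 and 52.7% (50.6 to 54.9) in replicate 2. The miR-17 family, Mir17 and Mir20a, held 48.3% (46.3 to 50.4) and 46.2% (44.1 to 48.3), miR-18 0.665% and 1.04%, and miR-19 0.0831% and 0. In the listed Mir106a-363 members, the miR-92 family, Mir92-2 and Mir363, held 96.7% (90.8 to 99.3) and 83.9% (74.5 to 90.9). The miR-17 family, here Mir20b, held 3.26% (0.678 to 9.23) and 16.1% (9.09 to 25.5). The shares of the 2 clusters do not overlap between libraries for either family, though Mir106a, a miR-17 family gene, is not among the listed members.

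**Figure D3:**
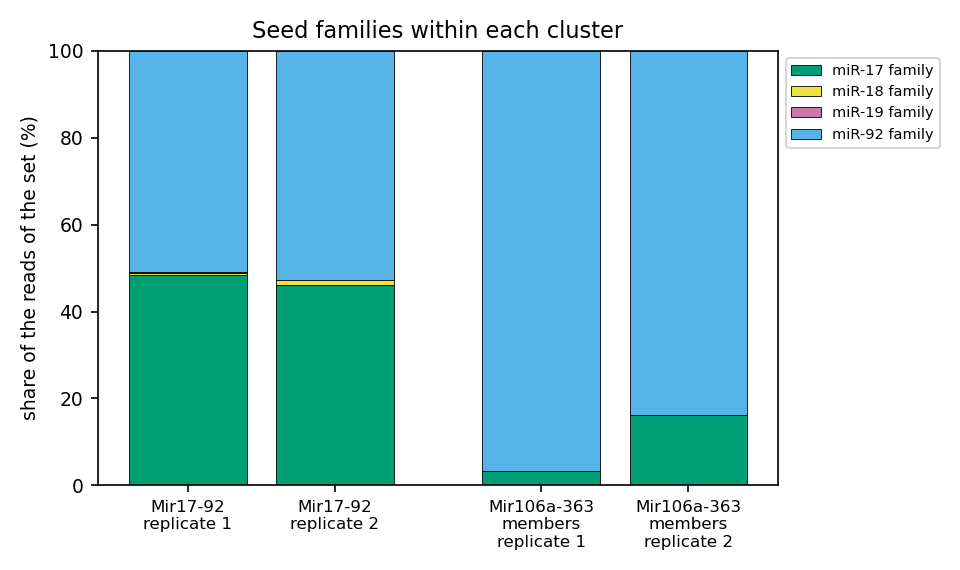
Share of the counted reads of each set (%) by seed family, with 1 bar per cluster and library and reads aligned to several places left out. The miR-92 family takes 50.9% and 52.7% of Mir17-92, against 96.7% and 83.9% of the listed Mir106a-363 members.

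The libraries were compared gene by gene with a two-sided exact binomial test after TMM scaling, with Benjamini-Hochberg adjustment over all 321 detected genes. This compares 2 libraries of 1 group. Of the 7 detected members, 5 passed, 4 higher in replicate 2 and 1 higher in replicate 1, beside 37.4% of all detected genes, which split 60 to 60. With total counts only, 4 members passed, 2 in each direction, beside 46.4% of all detected genes, which split 35 to 114. The share called depends on depth: 67.2% of genes at 100 CPM or more passed, where 3 of 3 members did. Under 20 CPM, 5.61% of the 107 genes passed, where Mir363 and Mir20b did and Mir18 did not. The median log2 ratio of the detected members, replicate 2 over replicate 1, was 0.48, against -0.01 over all detected genes. It was 0.18 against -0.30 with total counts only, and 0.18 against 0.00 with a filter of 10 CPM, which left 5 members.

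Mir363 and Mir20b, the least abundant of the detected members, differed most. Mir363 was 5.70-fold higher in replicate 2 (1.89 to 23.0, exact binomial adjusted p = 0.0016), and Mir20b 5.60-fold (1.56 to 30.4, exact binomial adjusted p = 0.008). Mir106a had 5 and 10 reads and did not pass (2.40-fold higher in replicate 2, 0.747 to 8.94). Mir92-2, from the same cluster, did not pass either and was 1.31-fold higher in replicate 1 (0.922 to 1.88). The reads of the X-linked cluster were thus made up differently in the 2 libraries, while the sum of the listed members differed 1.13-fold (0.836 to 1.54).

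In Mir17-92, Mir20a was 1.40-fold higher in replicate 2 (1.22 to 1.61, exact binomial adjusted p = 5.4e-06). Mir17 was 1.15-fold higher in replicate 1 (1.03 to 1.28, exact binomial adjusted p = 0.039). The call of Mir17 was lost with both strands (exact binomial adjusted p = 0.13), with DESeq2 size factors (0.061) and with no filter (0.069), and that of Mir20a with total counts only (0.14). Within each library, where no scaling enters, Mir17 exceeded Mir20a by 2.00-fold (1.77 to 2.26) in replicate 1 and 1.25-fold (1.10 to 1.41) in replicate 2, and these intervals do not overlap. Mir92-1 was 1.14-fold higher in replicate 2 (1.05 to 1.23, exact binomial adjusted p = 0.0056). Mir18 was 1.72-fold higher in replicate 2 and did not pass (0.872 to 3.49). Directions near 1-fold depend on the scaling: with total counts only, Mir92-1 was lower in replicate 2, as was the cluster's sum, which was 1.10-fold higher with TMM. With edgeR's exact test and a fixed dispersion of 0.01, which allows for spread beyond counting error, Mir363 was the 1 member of 7 to pass, beside 16.5% of all detected genes.

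**Figure D4:**
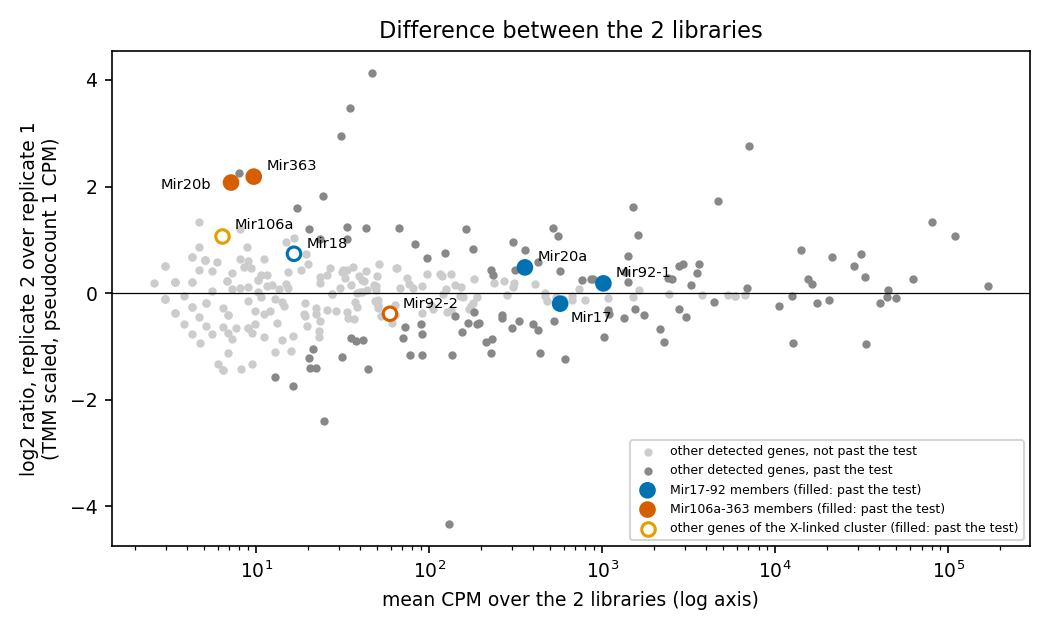
Log2 ratio of replicate 2 over replicate 1 (TMM scaled) against mean CPM (log axis), with 1 point per detected gene; large points are the genes of both clusters, filled where they passed the test. Mir20b and Mir363 lie at 2.08 and 2.19, while Mir17, Mir20a and Mir92-1 lie between -0.20 and 0.48.

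Markers of other cell types are set beside these differences, as CPM and then as the TMM-scaled fold used for the members, since the scalings differ in direction for some lists. The endothelial list, in effect Mir126a, summed to 80768 CPM in replicate 1 and 137674 in replicate 2, with its other member, Mir126b, at 0 and 1 reads, and was 2.11-fold higher in replicate 2 after scaling. The 5 leukocyte genes summed to 3481 and 2578 CPM, 1.09-fold higher in replicate 1 after scaling (1.04 to 1.14). Within that list Mir223, Mir150 and Mir155 had fewer CPM in replicate 2, and Mir142 (60.5 and 67.9 CPM) and Mir146 (299 and 326 CPM) had more. The 2 erythroid genes summed to 163 and 153 CPM, 1.16-fold higher in replicate 2 after scaling (0.937 to 1.42). Of these, Mir451a had 180 and 117 reads, and Mir144 had 9 and 65. The 2 smooth muscle genes summed to 50799 and 42140 CPM, 1.03-fold higher in replicate 2 after scaling (1.01 to 1.04). The part of cell make-up in the members' differences was not tested, and in whole tissue fewer cells of a type and less RNA per cell cannot be told apart.

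The detected genes closest to Mir92-1 in level over the 2 libraries were Mir652, Mir130a and Mir181a-2, at distances of 0.22, 0.28 and 0.34 in log2(CPM + 1). Those closest to Mir92-2 were Mir223, Mir30c-1 and Mir187, at 0.07, 0.12 and 0.13. Each distance rests on 2 points. The third paralogous cluster, Mir106b-25 on chromosome 5, summed to 2225 and 1670 CPM, beside 2079 and 1844 for Mir17-92. It has a pair of miR-17 family genes, Mir93 and Mir106b. Mir93 exceeded Mir17 by 2.78-fold (2.56 to 3.02) and 2.58-fold (2.34 to 2.85), while Mir106b, with 251 and 283 reads, lay below Mir17 in both libraries. Mir25, its miR-92 family gene, had 170 and 254 reads, below Mir92-1 in both libraries.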

How the data were processed

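Small RNA was sequenced from 2 gastrocnemius libraries of 1 group. The authors deposited raw counts of reads for each microRNA gene, in 3 columns: both strands, the gene's strand and the opposite strand. The text deposited with them names mm10 and GENCODE M21, while the aligner used is not given in the sources used here. Columns and totals are laid out like STAR's gene counts, and the 4 lines of library totals stayed out of all sums and tests. The gene's strand (column 3) was used, and replicate libraries were not pooled.

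CPM used the sense total of each library. Libraries were scaled by TMM over detected genes (edgeR 4.0.16, R 4.3.3; factors 1.11 and 0.899). Genes at 2 CPM or more in both libraries were tested with the two-sided exact conditional binomial test and Benjamini-Hochberg adjustment at 0.05; log2 ratios had a pseudocount of 1 CPM. Intervals are exact at 95%. The test was checked on simulated libraries with counting error alone and no TMM scaling, so the check does not cover spread beyond counting error. Shared runs and arm matches were searched in the 2202 GENCODE microRNA gene sequences; a genome sequence was not used. Python 3.11.15 and scipy 1.17.1 were used. Size factors from DESeq2 1.42.0 were an alternative.

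The genes named are the 10 members, the rest of their clusters, the Mir106b-25 cluster, the marker lists, and the 3 detected genes nearest to the most abundant member of each cluster. The members and lists were chosen with earlier results of these data known.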

Additional observations from a re-analysis of the deposited data

How the results depend on the processing

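Levels moved with their denominator and with the genes summed. The sum of Mir17-92, 1962 CPM, became 2790.3 with both strands together, 2364 without the most abundant gene in the denominator, 946 without genes sharing a run of 20 bases and 2302 per 100 bases of gene. The 4 listed Mir106a-363 members, 76.2 CPM, became 108, 91.8, 16.9 and 87.1 under the same settings, and 83.0 with Mir106a and Mir18b. Their ratio of 25.7 was 100.1 without the sharing genes, where it rests on 7 and 33 X-linked reads, 26.4 per 100 bases and 23.6 with Mir106a and Mir18b. It stayed at 25.7 with both strands together, whose smaller denominators of 832260 and 818309 reads raised both sums. Leaving out 1 replicate gave sums of 1844 to 2079 and of 72.9 to 79.5 CPM, and ratios of 25.3 to 26.2.

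Of the 5 members that differed between libraries by the exact binomial test, 3 did with a filter of 10 CPM, which left 5 members to test and called 47.4% of all genes tested, and 1, Mir363, with edgeR's exact test and its dispersion set to 0.01, which called 53 of 321 genes (16.5%) against 120. The other settings called 4 members each, beside 33.5% of genes with both strands, 36.8% with DESeq2 size factors, 46.4% with total counts and 20.7% with no filter, where 8 members were tested. Mir17 did not pass with both strands (exact binomial adjusted p = 0.13), DESeq2 size factors (exact binomial adjusted p = 0.061) or no filter (exact binomial adjusted p = 0.069, computed after seeing the data). Scaling by total counts lost Mir20a (exact binomial adjusted p = 0.14), added Mir92-2 (exact binomial adjusted p = 0.013) and turned the log2 ratio of Mir92-1 from 0.18 to -0.12, where it did not pass (exact binomial adjusted p = 0.084). A single library gives no such comparison, so leaving out a replicate was not run there. No paired analysis was possible because there is 1 group.

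Depth limits the members under 20 CPM: Mir18, Mir363, Mir20b and Mir19a had 23 or fewer reads in each library.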
